A study of Mus musculus with 6 samples.

Results

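The genes described here encode the proteins of the mitochondrial ribosome. They were chosen by name alone, as the protein-coding genes whose current mouse symbol starts with *Mrpl* (large subunit) or *Mrps* (small subunit) followed by a digit, without pseudogenes. Of 78 symbols that fit this rule, 77 had a row among the 37224 genes of the count table, 48 of them *Mrpl* and 29 *Mrps*, and *Mrpl33* was not analysed here. The 77 genes lie on 17 chromosomes, so that they form a group by the complex their proteins build and not by position.

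RNA was measured in whole embryonic pancreata of wild-type (wt) C57/Bl6J mice, taken 13.5 or 15.5 days post coitum (dpc), with 3 samples per stage. No sample carried a transgene or received a treatment, and the stages differ only in embryonic age as far as the labels say. Each sample was made by the authors from the pooled organs of at most 3 embryos, and they named the 3 samples of a stage biological replicates. The question asked of the data was how the transcripts of these genes, and of the genes that work with them, differ between 15.5 and 13.5 dpc.

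Mitochondria keep their own ribosomes, which make only the few membrane proteins of the respiratory chain and the ATP synthase that are still encoded by mitochondrial DNA. The ribosomal RNA of these particles is transcribed in the organelle, whereas every one of their proteins is encoded in the nucleus, made in the cytosol and imported. Some of the proteins descend from bacterial ribosomal proteins and others were added during the evolution of mitochondria. In the exocrine pancreas, mitochondria supply the ATP on which the synthesis and secretion of digestive enzymes depend.

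Total counts ranged from 10546028 to 16389237 per sample, and 15578 genes passed the filter on low counts and were tested with edgeR's quasi-likelihood test. The 15.5 dpc samples stood further apart from each other than the 13.5 dpc samples, with replicate 1 at one end and replicate 2 at the other. The ratio of these replicates also ran with gene length, with a Spearman rho of -0.59 across the 15578 genes, which are not independent replicates. All 7 acinar markers tested rose, and their summed level was 77176 to 94185 normalised counts at 13.5 dpc and 1205450, 548373 and 770404 at 15.5 dpc in replicates 1, 2 and 3. The 6 mesenchymal markers summed to 58348, 91839 and 78939 at 15.5 dpc, in the opposite order, against 82299 to 94280 at 13.5 dpc. *Col1a1* and *Col3a1* carried this sum, whereas the marker *Barx1* singly ran in the acinar order (680, 394 and 521). *Nkx3-2* (-1.70, adjusted p = 0.0016), *Pdgfra* (-1.33, adjusted p = 0.0061) and *Barx1* (-0.72, adjusted p = 0.031) were called lower at 15.5 dpc (edgeR). *Col1a1*, *Col3a1* and *Pdgfrb* were not called. The summed endocrine markers were 34601, 20463 and 25221 in the 15.5 dpc replicates, against 19569 to 21536 at 13.5 dpc. This sum was carried by *Gcg* and *Ins2*, of which *Ins2* was called higher and *Gcg* lay lower at 15.5 dpc without passing the test (-0.32, adjusted p = 0.11, edgeR), and *Neurod1* ran in the opposite replicate order. The summed endothelial markers were 3786, 5273 and 4648 at 15.5 dpc, against 4263 to 4848 at 13.5 dpc. The sum of the 6 epithelial markers (139099, 76052 and 129734) was carried by *Cpa1*, which is also an acinar marker, and *Epcam* ran in the same order, whereas *Cdh1*, *Pdx1*, *Sox9* and *Nkx6-1* were highest in replicate 2 and lowest in replicate 1. The summed erythroid markers had 22263 to 25748 normalised counts at 13.5 dpc, against 44269, 15931 and 25754 in the 15.5 dpc replicates, but they did not move together, since the embryonic globin *Hbb-y* was lower at 15.5 dpc (-4.69, adjusted p = 5.8e-05, edgeR) and *Hbb-bs* (1.35, adjusted p = 0.029) and *Alas2* (0.88, adjusted p = 0.017) were higher. None of the markers in the 9 cell type lists was at 0. In whole tissue, a difference in the number of cells of a type cannot be told apart from a difference in RNA per cell, and this holds for all values below.

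Nearly all mitochondrial ribosomal protein genes had higher mean transcript levels at 15.5 dpc, by a moderate amount, but few of them singly passed the test. Of the 77 genes, 76 passed the filter on low counts. The fitted log2 fold change of 15.5 over 13.5 dpc was positive for 75 of these and negative for 1, *Mrps36*, with a range of -0.18 to 0.94 and a median of 0.41. Over all genes tested the median was -0.01 and 48.9% were positive. At an adjusted p at or below 0.05 (edgeR, Benjamini-Hochberg over all genes tested), 6 of the 76 were higher (7.9%), against 11.6% of all genes tested, so the share called was below the background. None was lower, against 10.7% of all genes tested. At an unadjusted p below 0.05, 34 of the 76 were higher and 0 were lower, against 3147 and 2943 of the 15578 genes tested, and DESeq2 also called 0 lower.

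Per library, the spread among the 15.5 dpc samples was close in size to the stage difference itself. For each gene and sample, the deviation of the log2 normalised count from the mean of the 13.5 dpc samples was taken, and the median over the 76 genes was used to describe the sample. This median was 0.040, 0.027 and -0.062 at 13.5 dpc and 0.75, 0.031 and 0.31 at 15.5 dpc in replicates 1, 2 and 3, with SDs of 0.056 and 0.36, respectively (n = 3 samples each). Thus 15.5 dpc replicate 2 lay within the range of the 13.5 dpc samples, whereas replicates 1 and 3 lay above it. The order was nearly the same in every gene: replicate 1 was the highest of the 6 samples in 74 of 76 genes, and replicate 1 exceeded 3, which exceeded 2, in 72. Replicate 1 was above all 13.5 dpc samples in 75 genes, replicate 3 in 68 and replicate 2 in 31.

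**Figure D1:**
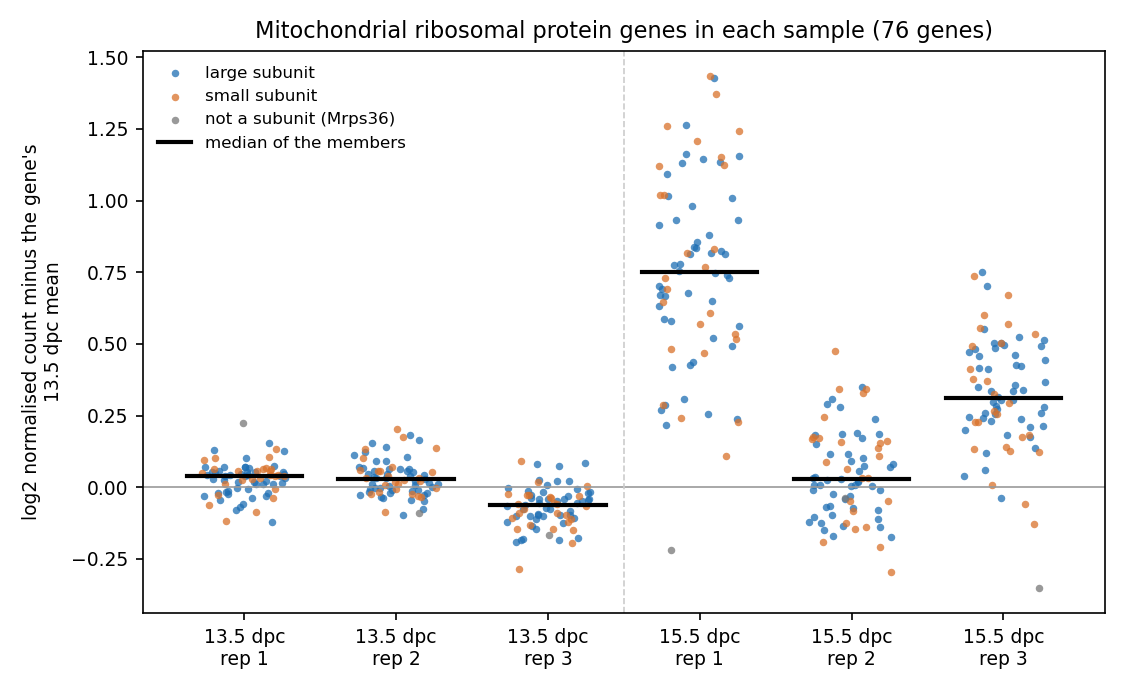
Each point is 1 of 76 mitochondrial ribosomal protein genes in 1 sample (x axis), plotted as the log2 normalised count minus the mean of that gene in the 3 samples of 13.5 dpc (y axis), with large subunit genes in blue, small subunit genes in orange and *Mrps36* in grey. Black bars are the medians, which lie at 0.75, 0.031 and 0.31 in the 15.5 dpc replicates 1, 2 and 3, so that replicate 2 sits level with the 13.5 dpc samples.

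The same order was visible before any scaling between genes. The 77 genes held 0.391%, 0.393% and 0.364% of all counts at 13.5 dpc and 0.529%, 0.367% and 0.433% at 15.5 dpc in replicates 1, 2 and 3. The replicates of 15.5 dpc were ordered like the summed acinar, endocrine and erythroid markers given above and opposite to the mesenchymal and endothelial sums, and the part of these cell types in the result was not tested. The median coefficient of variation between replicates was 5.38% at 13.5 dpc and 27.4% at 15.5 dpc, and it was larger at 15.5 dpc in 75 of 76 genes. Over all genes tested the medians were 6.55% and 18.0%.

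In 31 of the 76 genes the stages did not overlap, with 15.5 dpc the higher one, against 22.8% of all genes tested, and in 0 genes did 15.5 dpc lie wholly below, against 23.6%. Without 15.5 dpc replicate 2 the first of these counts was 71 of 76, against 34.6% of all genes. The study's own thresholds ask for an adjusted p of at most 0.1, a mean above 100 normalised counts at one of the stages and a fold change outside 0.6 to 1.6. By these, 9 of the 76 were regulated, all upwards, against 9.88% of all genes tested in either direction. These were *Mrpl17*, *Mrpl30*, *Mrpl57*, *Mrps12*, *Mrps14*, *Mrps16*, *Mrps24*, *Mrps28* and *Mrps34*. Of these, *Mrpl30*, *Mrps14* and *Mrps24* lie outside the rule used for naming genes and were named after their values were seen.

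**Figure D2:**
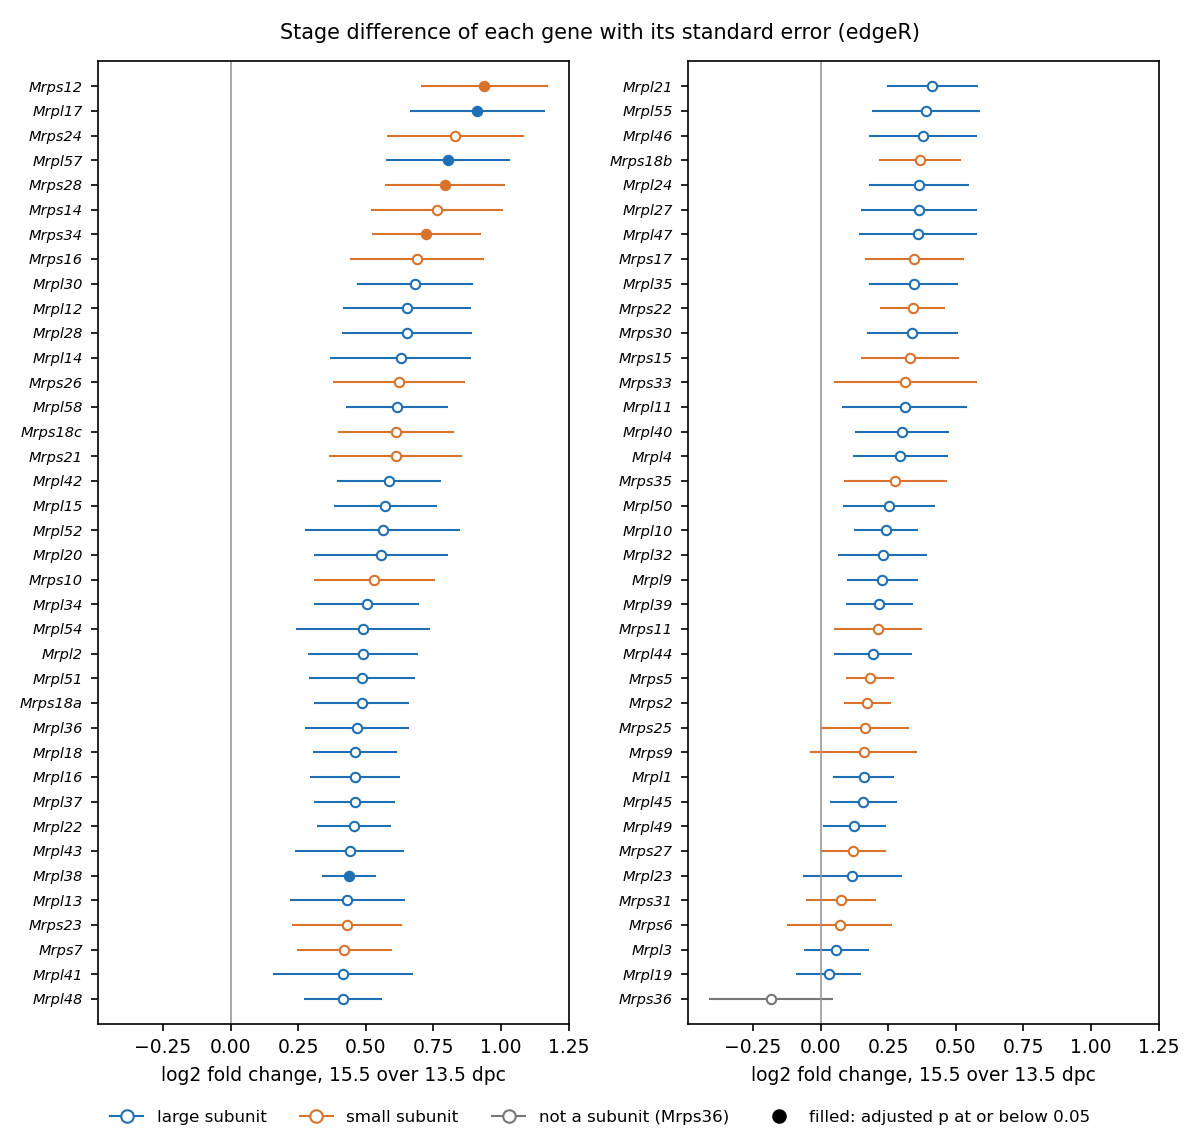
The log2 fold change of 15.5 over 13.5 dpc (x axis) is drawn for each of the 76 genes tested, ordered from the highest at the top left to the lowest at the bottom right, with bars of 1 standard error from edgeR. Colours mark the subunit, filled points mark the 6 genes that passed the test at 0.05, and *Mrps36* at -0.18 is the 1 gene left of 0.

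The largest difference was that of *Mrps12* (chr7:28739641-28741820), which encodes the small subunit protein of the decoding centre and descends from a bacterial protein. Its normalised count was 486, 438 and 471 in the 13.5 dpc samples and 1257, 646 and 774 in the 15.5 dpc samples, in the order of replicates 1, 2 and 3. Every 15.5 dpc sample exceeded every 13.5 dpc sample, and replicate 1 was far above the others. The log2 fold change was 0.94 ± 0.23 (SE; adjusted p = 0.029, edgeR). *Mrps28* (chr3:8802146-8923918), whose protein is related to bacterial S1, had 341, 375 and 394 normalised counts at 13.5 dpc and 876, 464 and 588 at 15.5 dpc. The stages did not overlap, and the log2 fold change was 0.79 ± 0.22 (adjusted p = 0.041, edgeR). *Mrps34* (chr17:24895116-24897502) encodes a small subunit protein that bacteria lack and that is needed for a stable small subunit. Its normalised counts were 711, 702 and 661 in the 13.5 dpc samples and 1536, 877 and 1016 in the 15.5 dpc samples, again without overlap, with a log2 fold change of 0.72 ± 0.20 (adjusted p = 0.040, edgeR). Of its 2064 exon bases, 763 are shared with *Nme3* on the same strand, so its count is uncertain.

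In the large subunit, *Mrpl17* (chr7:105806658-105811099), which descends from a bacterial protein, had 1151, 1079 and 1070 normalised counts at 13.5 dpc, against 2957, 1402 and 1851 at 15.5 dpc. It had the highest normalised counts of the 6 genes called, although not per kilobase of exon, and its log2 fold change was 0.91 ± 0.25 (adjusted p = 0.039, edgeR). *Mrpl57* (chr14:57826239-57828745), a protein found only in mitochondria, had 408, 379 and 428 normalised counts at 13.5 dpc, against 973, 496 and 660 at 15.5 dpc, and the log2 fold change was 0.80 ± 0.23 (adjusted p = 0.044, edgeR). *Mrpl38* (chr11:116131817-116138868), a mitochondria-specific protein of the central protuberance, had 826, 791 and 790 normalised counts at 13.5 dpc and 1198, 993 and 1067 at 15.5 dpc. In this gene the 15.5 dpc replicates lay close together. Its difference was the smallest of the 6 but had the lowest adjusted p, with a log2 fold change of 0.44 ± 0.10 (adjusted p = 0.022, edgeR).

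**Figure D3:**
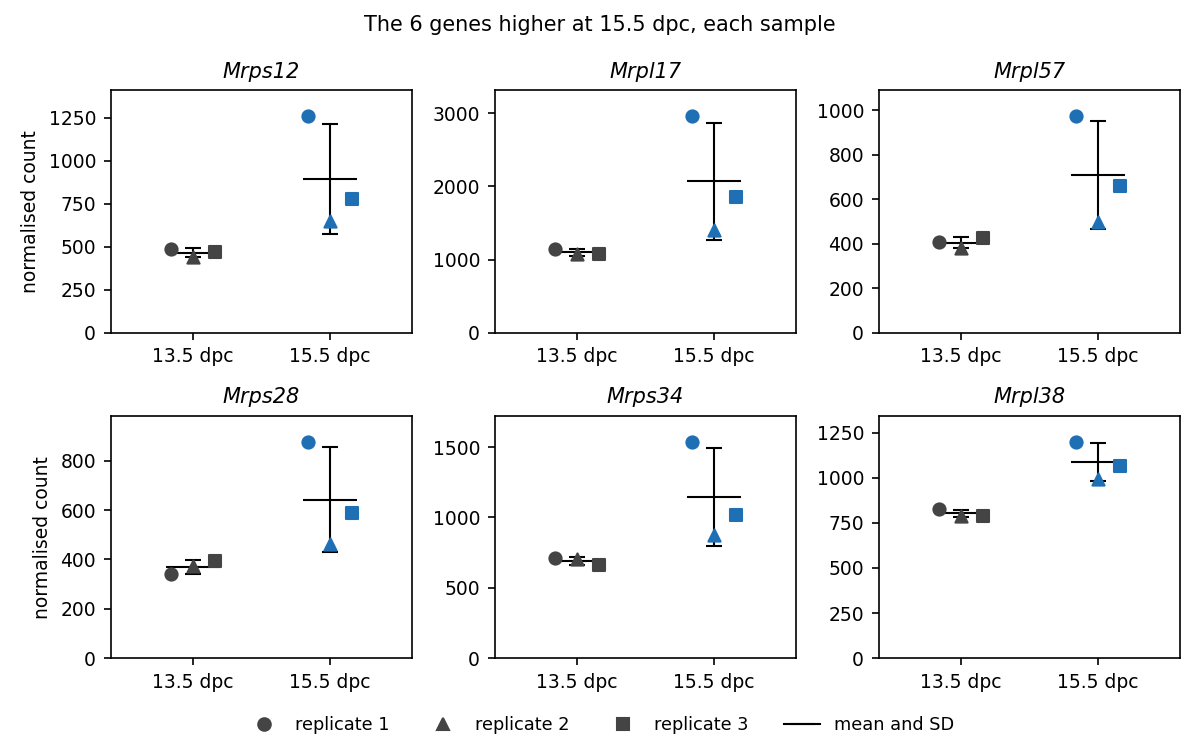
Normalised counts (y axis, from 0) of the 6 genes higher at 15.5 dpc are shown for each replicate of 13.5 and 15.5 dpc (x axis), with the mean and SD of the 3 samples in black. In all 6 genes the 15.5 dpc replicates run from replicate 1 (highest) over replicate 3 to replicate 2 (lowest), and replicate 2 still lies above the 13.5 dpc samples.

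These 6 calls depended on which samples entered the test. The same 6 genes were called without 15.5 dpc replicate 1, without 15.5 dpc replicate 2 and by DESeq2. Without any one of the 13.5 dpc samples, or without 15.5 dpc replicate 3, none of the 76 genes was called, and the highest adjusted p of the 6 genes over all samples left out ranged from 0.10 for *Mrpl38* to 0.15 for *Mrpl57* (edgeR). In those fits the share of all genes called higher fell to 4.54% to 5.40%. Without 15.5 dpc replicate 1, 11 genes were called (14.5%, against 14.1% of all genes tested) and the median log2 fold change was 0.18. Without 15.5 dpc replicate 2, 61 genes were called (80.3%, against 24.7% of all genes tested) and the median was 0.58. DESeq2 called 19 of 77 genes (24.7%, against 9.63% of the genes it tested), with a median of 0.42. With library sizes alone in place of TMM factors, the median over all genes moved from -0.01 to -0.22 and that of the 76 genes to 0.18, with 59 positive (77.6%, against 31.4% of all genes) and 2 called (2.63%, against 7.27%).

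**Figure D4:**
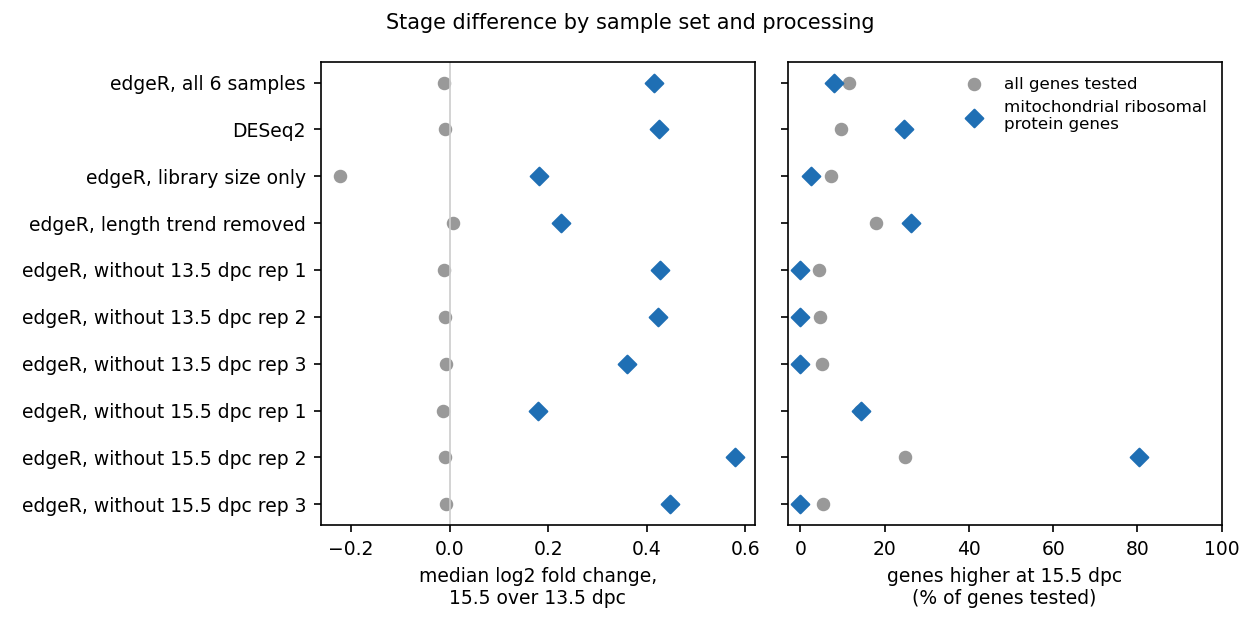
For each sample set and way of processing (rows), the left panel gives the median log2 fold change of 15.5 over 13.5 dpc and the right panel the percent of genes called higher at an adjusted p at or below 0.05, with blue diamonds for the mitochondrial ribosomal protein genes and grey circles for all genes tested. The blue median is to the right of the grey one in every row, whereas the percent called ranges from 0 to 80.3 for the blue diamonds.

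The medians of both subunits were close to each other. The 49 large subunit genes tested had a median log2 fold change of 0.42 (0.03 to 0.91), with 3 called higher (6.12%). The 26 small subunit genes had a median of 0.36 (0.07 to 0.94), with 3 called higher (11.5%), against 11.6% of all genes tested. All 75 genes were positive. The 45 genes with a bacterial homologue had a median of 0.42 and the 30 genes found only in mitochondria a median of 0.40. By these values no class stood apart, and differences between the classes were not tested. The symbols do not always name the right subunit, since *Mrps30* and *Mrps18a* encode large subunit proteins and were counted there.

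*Mrps36* was the exception in sign and also in function. Its protein is a component of the 2-oxoglutarate dehydrogenase complex and not a subunit of the ribosome, although the gene kept its ribosomal name. It was also the least abundant of the 76 genes tested, with 24.6, 19.7 and 18.7 normalised counts at 13.5 dpc and 18.0, 20.5 and 16.4 at 15.5 dpc. The stages overlapped, with a log2 fold change of -0.18 ± 0.23 (adjusted p = 0.64, edgeR). Of its 50-base windows, 17.3% are shared with other loci, mainly the pseudogenes *Mrps36-ps1* and *Mrps36-ps2*, and reads that align to more than 1 locus were not counted. *Mrpl53* was the gene that could not be tested, with 1, 2 and 1 raw counts in the 13.5 dpc samples and 3, 0 and 1 in the 15.5 dpc samples. Of its 735 exon bases, 640 are shared with *Gm42688* on the same strand, so these counts cannot be read as its level.

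Levels differed far more between the genes than between the stages. Per kilobase of exon, the mean over the 6 samples ranged from 15.4 normalised counts for *Mrps36* to 2126 for *Mrpl52*, with a median of 383. The median was 94.2 over all genes tested and 1739 over the cytosolic ribosomal protein genes, the better known set that builds the ribosomes of the cytosol. The highest levels after *Mrpl52* (2126 ± 862, SD over 6 samples of both stages) were those of *Mrpl12* at 1169 ± 438, *Mrps16* at 1138 ± 451, *Mrpl42* at 1080 ± 334 and *Mrpl28* at 993 ± 371. The ranges of mean ± SD of the latter 4 overlap, but these SDs hold shifts between samples that the genes share. *Mrpl12* lay above *Mrpl28* in each sample, and differences between these levels were not tested. Only 2 of these 5 genes were also among the 5 highest per kilobase of transcript, so the order depends on the length used.

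*Mrpl12* encodes the stalk protein that recruits translation factors. It had 1404, 1407 and 1363 normalised counts at 13.5 dpc and 3076, 1506 and 1988 at 15.5 dpc. The stages did not overlap, but the difference did not pass the test (log2 fold change 0.65 ± 0.24, adjusted p = 0.086, edgeR). *Mrps16*, a small subunit protein of bacterial origin in which mutations cause a mitochondrial disease in humans, had 483, 512 and 483 at 13.5 dpc, against 1139, 549 and 698 at 15.5 dpc. The stages did not overlap either (0.69 ± 0.25, adjusted p = 0.084, edgeR). *Mrpl28* (0.65 ± 0.24, adjusted p = 0.089, edgeR) and *Mrpl42* (0.59 ± 0.19, adjusted p = 0.065, edgeR) had the same pattern without overlap. These 4 genes were among the 19 that DESeq2 called. In *Mrpl52*, with 744, 709 and 667 normalised counts at 13.5 dpc and 1583, 673 and 880 at 15.5 dpc, replicate 2 fell within the 13.5 dpc values and the stages overlapped (0.56 ± 0.29, adjusted p = 0.19, edgeR).

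At the low end stood *Mrps33* (81.3 ± 24.2 per kilobase), *Mrpl48* (67.8 ± 14.2), *Mrps10* (52.2 ± 17.2), *Mrpl23* (16.4 ± 1.39) and *Mrps36* (15.4 ± 2.21). Per kilobase of transcript *Mrpl48* and *Mrps10* ranked 44 and 50 of 76, so their low place depends on the length used. Of the 6119 exon bases of *Mrpl48*, 1865 are shared with another gene on the same strand, so its count is uncertain. Of the *Mrps33* windows, 13.3% are shared with other loci. *Mrpl23* and *Mrps36* do not differ beyond their spread and were the only ones of the 76 genes tested below 100 normalised counts in every sample. *Mrpl23*, whose bacterial counterpart lines the exit of the peptide tunnel, had 26.4, 27.4 and 29.5 normalised counts at 13.5 dpc and 33.2, 27.6 and 30.2 at 15.5 dpc, with a log2 fold change of 0.12 ± 0.18 (adjusted p = 0.73, edgeR). Of its windows, 11.8% are shared with other loci. *Mrps10* (0.53 ± 0.22, adjusted p = 0.12) and *Mrpl48* (0.42 ± 0.15, adjusted p = 0.078) had stages without overlap, and *Mrps33* had overlapping stages (0.31 ± 0.27, adjusted p = 0.40; all edgeR).

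Of 5 further genes named whatever their values, *Mrpl3*, *Mrpl44*, *Mrps22*, *Mrpl58* and *Mrps30*, none passed the edgeR test and DESeq2 called *Mrpl58*. *Mrpl3* was nearly level, with 780, 778 and 672 normalised counts at 13.5 dpc and 865, 684 and 774 at 15.5 dpc (log2 fold change 0.06 ± 0.12, adjusted p = 0.74, edgeR). *Mrpl44*, a protein with an RNase III fold, had 579, 611 and 572 at 13.5 dpc and 826, 590 and 603 at 15.5 dpc, so that replicate 1 alone stood above the rest (0.20 ± 0.14, adjusted p = 0.34, edgeR). *Mrps22* was 393, 377 and 387 at 13.5 dpc and 559, 424 and 484 at 15.5 dpc, without overlap (0.34 ± 0.12, adjusted p = 0.082, edgeR). *Mrpl58*, which releases peptides from stalled ribosomes, had 712, 706 and 659 at 13.5 dpc and 1394, 816 and 976 at 15.5 dpc, also without overlap (0.62 ± 0.19, adjusted p = 0.055, edgeR). *Mrps30*, first described as an apoptosis-related protein, had 538, 616 and 508 at 13.5 dpc and 869, 565 and 670 at 15.5 dpc, with overlap (0.34 ± 0.17, adjusted p = 0.18, edgeR).

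The 3 *Mrps18* paralogues encode related proteins that sit at different places in the ribosome. *Mrps18a*, the large subunit form, had 542, 549 and 557 normalised counts at 13.5 dpc and 969, 585 and 757 at 15.5 dpc (0.48 ± 0.17, adjusted p = 0.085, edgeR). *Mrps18c*, the form closest to the bacterial protein, had 450, 482 and 384 at 13.5 dpc and 890, 488 and 636 at 15.5 dpc (0.61 ± 0.22, adjusted p = 0.080, edgeR). *Mrps18b* was the least abundant, with 223, 263 and 213 at 13.5 dpc and 356, 262 and 286 at 15.5 dpc (0.37 ± 0.15, adjusted p = 0.12, edgeR). The stages overlapped in *Mrps18b* and not in the other two, although in *Mrps18c* the gap was only that between 482 and 488. Of the *Mrps18b* windows, 14.6% are shared with other loci.

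The mitochondrial ribosomal protein genes are short. Their exon length ranged from 412 bases (*Mrpl52*) to 8079 (*Mrps10*), with a median of 1715, against 3471 over all genes tested. Across the 15578 genes tested the log2 fold change fell with exon length (Spearman rho = -0.36), and across the 76 members rho was -0.24. The 4808 genes within the interquartile range of the members' length (1213 to 3004 bases) had a median log2 fold change of 0.12, with 61.0% positive and 15.7% called higher. The 39 members within that range had a median of 0.33, with 38 positive and 3 called. Values across genes are descriptions, since genes of one sample share its library.

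**Figure D5:**
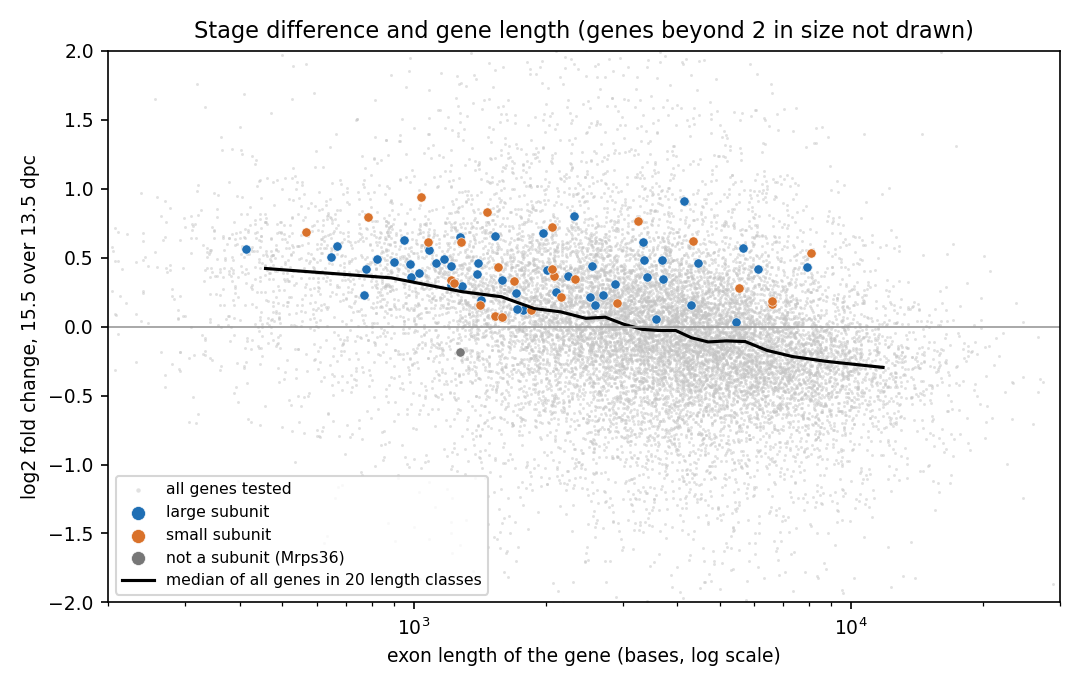
The log2 fold change of 15.5 over 13.5 dpc (y axis) is plotted against the exon length of the gene (x axis, log scale), with all genes tested in grey, the mitochondrial ribosomal protein genes in colour and the median of all genes in successive length classes as a black line. The line falls from positive values in short genes to negative values in long genes, and most coloured points lie above it.

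When a smooth trend with exon length was removed from each library, the median of the 76 genes fell from 0.41 to 0.23, whereas that of all genes was 0.01. Now 67 genes were positive and 20 were called higher (26.3%, against 18.1% of all genes tested), among them the 6 genes called before, and 0 were called lower. *Mrpl17* had the largest difference (1.00, adjusted p = 0.021, edgeR with the trend removed), *Mrpl12* (0.42, adjusted p = 0.0445), *Mrpl28* (0.38, adjusted p = 0.049), *Mrpl42* (0.22, adjusted p = 0.040) and *Mrpl58* (0.62, adjusted p = 0.0255) passed the test, and *Mrpl44* turned to -0.03. The member medians of the 15.5 dpc replicates 1, 2 and 3 became 0.39, 0.053 and 0.20, so that their order was kept with a smaller spread. After the correction the members' differences ran the other way with exon length (rho = 0.48) but less with the length of their coding transcripts (rho = 0.14). Exon length and transcript length were only partly alike (rho = 0.56 across the 76 genes), and the trend with transcript length gave a median of 0.25 with 14 genes called (18.4%, against 17.2% of all genes tested).

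The cytosolic ribosomal protein genes, the set closest in kind and similar in length (median 1444 exon bases), had the same pattern. Of 82 such genes 79 were tested, with a median log2 fold change of 0.52, 78 positive and 7 called higher (8.86%, against 11.6% of all genes tested). Their median deviations by sample were 0.056, 0.039 and -0.090 at the earlier stage and 0.93, 0.059 and 0.41 at the later one. These run in the order of the mitochondrial set, and the difference between the sets was not tested.

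Subunits that do not carry an *Mrp* symbol were examined as 5 further genes, of which 4 were positive and none was called by edgeR, with a median of 0.50 (3 higher and 0 lower at an unadjusted p below 0.05, and 2 higher by DESeq2). EdgeR called 2 of the 5 higher, *Aurkaip1* and *Gadd45gip1*, with the length trend removed, against 18.1% of all genes tested. It called 2 without 15.5 dpc replicate 1 (14.1% of all genes) and 4 without 15.5 dpc replicate 2 (24.7% of all genes). *Aurkaip1*, a small subunit protein also known as a binding partner of Aurora A kinase, had 887, 881 and 804 normalised counts at 13.5 dpc and 1877, 997 and 1288 at 15.5 dpc (log2 fold change 0.69 ± 0.22, adjusted p = 0.057, edgeR). *Gadd45gip1*, a large subunit protein at the exit of the tunnel, had 953, 897 and 893 at 13.5 dpc and 1774, 1080 and 1230 at 15.5 dpc (0.57 ± 0.18, adjusted p = 0.059, edgeR). *Dap3*, the GTP-binding protein of the small subunit, had 1230, 1266 and 1182 at 13.5 dpc and 2055, 1329 and 1578 at 15.5 dpc (0.43 ± 0.16, adjusted p = 0.088, edgeR). In these 3 genes the stages did not overlap, and the 15.5 dpc replicates were ordered as in the members. *Chchd1* had overlapping stages (0.50 ± 0.25, adjusted p = 0.19, edgeR). *Ptcd3*, a pentatricopeptide protein of the small subunit, had 803, 809 and 778 at 13.5 dpc and 668, 853 and 737 at 15.5 dpc, with replicate 1 the lowest (-0.08 ± 0.11, adjusted p = 0.61, edgeR).

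Factors that assemble the ribosome or modify its RNA were examined as 23 genes. Of these, 17 were positive and 3 were called higher (13.04%, against 11.6% of all genes tested), with a median of 0.17. None was called lower, against 10.7% of all genes tested. At an unadjusted p below 0.05, 7 were higher and 1 was lower, and DESeq2 called 0 lower. With the transcript length trend removed 5 were called higher and 3 lower. The difference from the members was not tested. *Mpv17l2*, an inner membrane protein needed for assembly, had 195, 183 and 206 normalised counts at 13.5 dpc and 440, 240 and 306 at 15.5 dpc (0.75 ± 0.21, adjusted p = 0.045, edgeR). *Mrm3*, which methylates the ribosomal RNA of the large subunit, had 176, 188 and 162 at 13.5 dpc and 322, 208 and 262 at 15.5 dpc (0.59 ± 0.17, adjusted p = 0.049, edgeR). *Noa1*, a GTPase, had 511, 515 and 481 at 13.5 dpc and 732, 607 and 724 at 15.5 dpc (0.45 ± 0.11, adjusted p = 0.024, edgeR). The stages did not overlap in these 3 genes, and each call was lost when at least 1 of the samples was left out, with a highest adjusted p of 0.15, 0.17 and 0.11, respectively.

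The factors of mitochondrial translation, transcription and genome maintenance had medians nearer to that of all genes in the fit without a length correction. Of 15 translation factors tested, 11 were positive and none was called in either direction, with a median of 0.06. At an unadjusted p below 0.05, 3 of these were higher and 1 was lower, and DESeq2 called none. With the length trend removed their median was 0.21, with 8 positive, 7 negative and 2 called higher (13.3%, against 18.1% of all genes tested). Of 10 genes for transcription and maintenance of mitochondrial DNA, 7 were positive and none was called, with a median of 0.09, 0 at an unadjusted p below 0.05 and 0 by DESeq2. With the length trend removed their median was 0.12 and 1 was called higher, the DNA polymerase gene *Polg* (0.32, adjusted p = 0.0068, edgeR), named after its values were seen. Of 9 regulators of mitochondrial biogenesis, 1 was called higher (11.1%, against 11.6% of all genes tested), with a median of -0.06. This was *Myc*, a transcription factor of growth, with 1387, 1506 and 1465 normalised counts at 13.5 dpc and 2113, 1694 and 1847 at 15.5 dpc (0.38 ± 0.11, adjusted p = 0.043, edgeR), a call that was also lost with 1 sample left out (highest adjusted p = 0.17). With the length trend removed the regulators had a median of 0.07, with 6 positive and 2 called higher (22.2%, against 18.1% of all genes tested). These were *Myc* (0.33, adjusted p = 0.011) and *Pprc1* (0.23, adjusted p = 0.023, edgeR), the latter named after its values were seen. The transcript length trend removed, 1 regulator was called higher and 1 lower.

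The messages that the mitochondrial ribosome translates did not differ together. Of the 13 mRNAs encoded by mitochondrial DNA, 10 were tested, of which 6 were positive and none was called, with a median of 0.07 (0 higher and 1 lower at an unadjusted p below 0.05, and 1 lower by DESeq2). Of the 10, *mt-Co2*, *mt-Co3* and *mt-Atp6* had only 14 to 47 raw counts per sample, beside at least 783 for the others, so their counts cannot be read as levels. With the length trend removed all 10 were negative, with a median of -0.26 and 1 called lower, against 14.7% of all genes tested. All 10 were also negative with library size only (median -0.15, 2 called lower). In that fit all genes tested had a median of -0.22 and 18.95% were called lower. All 10 were negative too without 15.5 dpc replicate 1 (median -0.18, 1 called lower, against 12.8% of all genes tested). The sign of this set thus depended on the processing and on 1 sample.

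Promoter sequences were examined for letters that known regulators of nuclear mitochondrial genes bind. RefSeq windows on GRCm38.p6 (the mm10 assembly), from 250 bases before to 50 after a start site, were given for 68 of the 77 genes, as 74 windows. The core GCGCANGCG of nuclear respiratory factor 1 (NRF1) occurred on either strand in 21.6% of these windows, against 8.58% of 21263 windows of coding genes. The core CCGGAAGT of ETS factors such as GABP occurred in 14.9% against 5.15%, and the core AAGATGGCG of YY1 in 10.8% against 1.83%. At least 1 of the 3 was in 44.6% of the windows, against 14.3%. The member windows were also richer in CG dinucleotides, with a median of 21.5 against 13 per window, and the part of base composition in these shares was not tested. These matches are descriptions of letters and not of bound sites.

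The 150 bases before the start site are printed, 5′ to 3′ on the strand of the gene, for the called genes that have a window. They are also printed for a part of the named genes with a motif. *Mrpl36* is added after its sequence was seen, for a YY1 core that lies upstream. Capitals mark the motif letters, and *Mrps12* carries none of the 3.
*Mrpl17*, chr7:105811088-105811237, minus strand: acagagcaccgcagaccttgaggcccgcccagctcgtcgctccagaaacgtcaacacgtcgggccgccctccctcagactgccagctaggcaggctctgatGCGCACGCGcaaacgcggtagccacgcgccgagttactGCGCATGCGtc
*Mrpl57*, chr14:57826089-57826238, plus strand: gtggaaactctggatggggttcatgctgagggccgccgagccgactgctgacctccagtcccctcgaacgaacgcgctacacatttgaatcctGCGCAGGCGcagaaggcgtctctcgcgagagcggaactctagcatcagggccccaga
*Mrps12*, chr7:28741822-28741971, minus strand: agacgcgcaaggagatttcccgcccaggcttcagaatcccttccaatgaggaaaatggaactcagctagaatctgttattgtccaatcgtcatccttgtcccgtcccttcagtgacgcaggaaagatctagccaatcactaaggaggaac
*Mrpl12*, chr11:120484487-120484636, plus strand: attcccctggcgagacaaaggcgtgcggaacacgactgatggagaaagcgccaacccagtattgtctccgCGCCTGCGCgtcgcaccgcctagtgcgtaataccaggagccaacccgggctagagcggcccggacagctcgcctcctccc
*Mrpl44*, chr1:79775868-79776017, plus strand: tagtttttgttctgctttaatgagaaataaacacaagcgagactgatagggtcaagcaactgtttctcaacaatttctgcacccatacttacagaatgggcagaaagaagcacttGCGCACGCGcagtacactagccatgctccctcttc
*Mrps22*, chr9:98601680-98601829, minus strand: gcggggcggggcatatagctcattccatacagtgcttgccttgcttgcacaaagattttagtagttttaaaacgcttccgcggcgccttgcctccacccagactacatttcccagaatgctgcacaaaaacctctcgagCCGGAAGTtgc
*Mrpl3*, chr9:105053118-105053267, plus strand: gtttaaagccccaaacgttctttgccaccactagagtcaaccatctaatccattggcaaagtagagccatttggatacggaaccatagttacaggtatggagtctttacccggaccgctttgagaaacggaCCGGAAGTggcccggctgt
*Mrpl36*, chr13:73330859-73331008, plus strand: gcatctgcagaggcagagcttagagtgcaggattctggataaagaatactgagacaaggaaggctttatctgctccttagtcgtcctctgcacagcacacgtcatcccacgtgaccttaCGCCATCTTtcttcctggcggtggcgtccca

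The NRF1 core stands at 49 and 11 bases before the start in *Mrpl17*, at 57 in *Mrpl57*, at 80 in *Mrpl12* and at 35 in *Mrpl44*, counted to the first base of the match. The first 2 of these genes were called, *Mrpl12* was not and *Mrpl44* had a log2 fold change of only 0.20, so genes with the same letters covered most of the range. The ETS core stands at 11 bases before the start in *Mrps22*, at 19 in *Mrpl3* and at 35 in a window of *Mrpl48* that is not printed. The YY1 core stands at 31 in *Mrpl36*. The median log2 fold change was 0.41 in the 16 genes with an NRF1 core and 0.39 in the 51 tested without one. It was 0.44 with and 0.37 without the ETS core, and 0.46 with and 0.38 without the YY1 core. No test was made of these medians.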

How the data were processed

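The deposited table holds a raw count per gene and sample. For it, the authors mapped single-end reads of strand-specific poly(A) libraries to mm10 by GSNAP and assigned reads with a single alignment to Ensembl genes by featureCounts 1.4.6, so reads that fit several loci are lost. It also lists exon lengths. Symbols came from an mm10 annotation by identifier (35449 of 37224 matched). All genes were tested together in R 4.3.3 with edgeR 4.0.16 (filterByExpr, TMM, quasi-likelihood test without covariates, 6 samples) and Benjamini-Hochberg adjustment, and again with DESeq2 1.42.0. Normalised counts use the effective library sizes, set to their geometric mean, and log2 values of single samples a pseudocount of 0.5. The length trend is a lowess curve (span 0.5) of each library against log2 exon length, entered as an offset. A standard error is the log2 fold change, without its sign, divided by the root of F. Total counts of 10546028 to 16389237 are part of what sets the precision, beside the spread between samples, which was larger at 15.5 dpc. The steps were tested on simulated data. The p-values measure the spread between pooled samples.

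The members and lists were chosen with earlier results of these data known. Named genes were the called members without overlap, the 5 highest and 5 lowest levels per kilobase, 13 members and 5 subunits without an *Mrp* symbol whatever their values, and up to 3 called genes a list. Alternatives were other normalisations, filters, thresholds and tests, a block for the replicate number, and each sample left out. The trend with transcript length, the length trend with samples left out, and the overlap with samples left out, were added after seeing the data.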

Additional observations from a re-analysis of the deposited data

How the results depend on the processing

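The median log2 fold change of the members was positive in every alternative run, and 0.18 to 0.58 with each sample left out. The number called higher (6) was 2 with library size only, 19 with DESeq2, 10 without a filter (7.34% of all genes), 20 with the length trend removed, 14 with the transcript length trend removed and 24 at an adjusted p at or below 0.1 (17.6% of all genes). With each sample left out it was 0 to 61. With the length trend removed as well it was 3 when 13.5 dpc replicate 1 or 2 was left out (10.7% and 11% of all genes), 21 for 15.5 dpc replicate 1 (19.3%) and 44 for 15.5 dpc replicate 2 (25.4%). In all of these fits 0 members were called lower. The number that met the study's thresholds (9) was 1 with library size only, 0 at a fold below 0.5 or above 2, and 0 to 24 with each sample left out. With the length trend removed as well it was 3, 3 and 2 without 13.5 dpc replicate 1, 2 or 3, and 0 and 15 without 15.5 dpc replicate 1 or 2. The number lying wholly higher at 15.5 dpc (31) was 14 with library size only (12.6% of all genes), where 1 lay wholly lower (39.5%), and 31 to 71 with each sample left out. The cause was not tested.

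The replicate numbers did not pair the samples, since deviations from the stage means correlated at 0.22, -0.22 and 0.04 within numbers 1, 2 and 3. A fit with the number as a block called 5 members higher (9.15% of all genes), with a median of 0.38. With the block and the length trend removed 17 were called (15.7% of all genes) and 4 met the study's thresholds.

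Among 33 named genes, 726 comparisons with an alternative gave 553 with the same direction and side of the threshold, 72 no longer past it, 76 newly past it and 25 reversed. *Mrpl23* was -0.095 with library size only, -0.038 with the length trend removed, -0.033 with the block as well and -0.087 with the transcript length trend removed. *Mrpl44* was -0.031, -0.027 and -0.028 in the first 3 of these settings. *Mrpl3* was -0.16 with library size only, and -0.026 to 0.155 with each sample left out, where *Ptcd3* was -0.167 to 7.3e-05. With samples left out and the length trend removed, *Mrpl23* was -0.081 and -0.055 without 13.5 dpc replicate 1 or 2 and -0.0034, -0.056 and -0.043 without 15.5 dpc replicate 1, 2 or 3. Likewise *Mrpl44* was -0.051, -0.0058 and -0.014 without 13.5 dpc replicate 1, 2 or 3, and -0.054 and -0.042 without 15.5 dpc replicate 1 or 2. Without 15.5 dpc replicate 1, *Mrpl3* was -0.0030, *Mrpl52* -0.054 and *Mrps33* -0.086, and *Mrps33* was -0.041 without 13.5 dpc replicate 3. The counts of *Mrps36*, *Mrpl23* and *Mrpl53* were the lowest, and sequence shared with other genes limits them beside depth.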

Other observations

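The transcripts of the factors whose motif letters were searched did not pass the test in either direction, and the sign for some depended on the correction for length. *Nrf1* had 812, 792 and 836 normalised counts at 13.5 dpc and 768, 796 and 782 at 15.5 dpc (log2 fold change -0.06 ± 0.08, adjusted p = 0.63, edgeR), and *Yy1* had 1266, 1259 and 1222 at 13.5 dpc and 1246, 1321 and 1214 at 15.5 dpc (0.01 ± 0.08, adjusted p = 0.92, edgeR). *Gabpa*, the DNA-binding part of GABP, had 1053, 1119 and 1044 at 13.5 dpc and 830, 1225 and 1015 at 15.5 dpc (-0.07 ± 0.14, adjusted p = 0.76, edgeR), with replicate 2 the highest at 15.5 dpc. With the length trend removed the log2 fold changes of *Nrf1*, *Yy1* and *Gabpa* were 0.25, -0.01 and 0.07 (adjusted p = 0.18, 0.92 and 0.55, edgeR). The stages overlapped in all 3 genes, and transcript levels say nothing of the activity of the factors. They were named after their values were seen.

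Among the translation factors, *Gfm1*, the elongation factor that moves the ribosome along the message, had 574, 613 and 574 normalised counts at 13.5 dpc and 703, 699 and 686 at 15.5 dpc. The 15.5 dpc replicates were close together here, in contrast to those of the ribosomal proteins, and the difference did not pass the test (0.25 ± 0.09, adjusted p = 0.077, edgeR), whereas it did with the length trend removed (0.33, adjusted p = 0.012, edgeR). *Tufm*, the factor that brings aminoacyl-tRNA to the ribosome, had 330, 327 and 277 at 13.5 dpc and 487, 335 and 389 at 15.5 dpc (0.37 ± 0.16, adjusted p = 0.12, edgeR), in the order seen in the ribosomal proteins. Both genes were named after their values were seen.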
